A study of Mus musculus with 2 samples.

Results

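The 8 measured enzymes of heme synthesis were examined in mouse fetal liver, as genes and as the transcript forms of each gene. They were Alas2, Alas1, Alad, Uros, Urod, Cpox, Ppox and Fech, taken by matching gene identifiers without their version to these symbols in the GENCODE mouse annotation of GRCm38. They make up 8 of 43346 genes and 44 of 103639 transcripts in the tables, with spike-ins left out. The enzyme of the third step of the pathway is not analysed here. Both libraries were made from whole liver of B6NCrl embryos at embryonic day 15.5, healthy and of mixed sex, with no treatment or mutation named in the labels. The 2 libraries are biological replicates per the labels. Replicate 1 pooled the livers of 78 embryos and replicate 2 those of 62 embryos. RNA longer than 200 nt was sequenced from 10 ng of starting material with synthetic spike-in RNAs added. There was a single group, so no comparison between conditions exists, and the error of every value is the spread between these 2 pools.

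Heme is made from glycine and succinyl-CoA in a chain of enzymes that begins and ends in mitochondria and passes through the cytosol in between. The first step, catalysed by 5-aminolevulinate synthase, is the committed one, and it exists in an erythroid form (Alas2) and a housekeeping form (Alas1). At this stage the liver is the main site of red cell production, and erythroblasts need large amounts of heme for hemoglobin, while hepatocytes make heme for cytochromes and other enzymes. The mRNA of Alas2 carries an iron responsive element near its start, through which iron regulatory proteins hold back its translation when iron is scarce. For Alad and Uros, a housekeeping promoter and an erythroid promoter lying downstream of it have been described in the mouse.

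Levels are given in TPM, a transcript abundance normalised for length and library total, rescaled here to genes alone. The libraries held 34039426 and 44200838 expected counts on genes in replicates 1 and 2. They differed beyond sampling noise, with a chi-square of 20.0 per degree of freedom over 15492 genes, and were treated as separate replicates. The tissue label was checked against markers. All 9 hepatocyte markers reached 10 TPM in both libraries, led by Trf at 12785 ± 3462 TPM and Afp at 10876 ± 739 TPM (SD, n = 2). All 8 erythroid markers also reached 10 TPM, led by the anion exchanger Slc4a1 at 1054 ± 86.4 TPM (SD, n = 2). Summed levels in replicates 1 and 2 were 2590 and 2498 TPM for erythroid markers and 43983 and 34184 TPM for hepatocyte markers. The sums were 4932 and 5436 TPM for granulocyte markers, led by S100a8 and S100a9. They were 317 and 276 TPM for macrophage markers, led by C1qb and C1qa, and 427 and 443 TPM for megakaryocyte markers, led by Pf4 and Ppbp. Endothelial markers, led by Lyve1 and Stab2, summed to 65.4 and 60.0 TPM. In bulk tissue of this kind, fewer cells of a type and less RNA per cell cannot be told apart.

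Alas2 was the most abundant of the enzymes and Alas1 the least, although both catalyse the same reaction. The 8 genes summed to 3953 TPM in replicate 1 and 3738 TPM in replicate 2, a mean of 3846 ± 152 TPM (SD, n = 2) or 0.385% ± 0.0152 of all gene TPM. Alas2 alone made up 36.8% and 34.6% of that sum. The 5 mitochondrial enzymes, Alas2, Alas1, Cpox, Ppox and Fech, summed to 2709 and 2492 TPM. The 3 cytosolic enzymes, Alad, Uros and Urod, summed to 1244 and 1246 TPM. Of the 8 members, 7 reached 100 TPM in both libraries, all but Alas1, while 8.06% of the 12331 genes detected in both (1 TPM or more) did so.

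**Figure D1:**
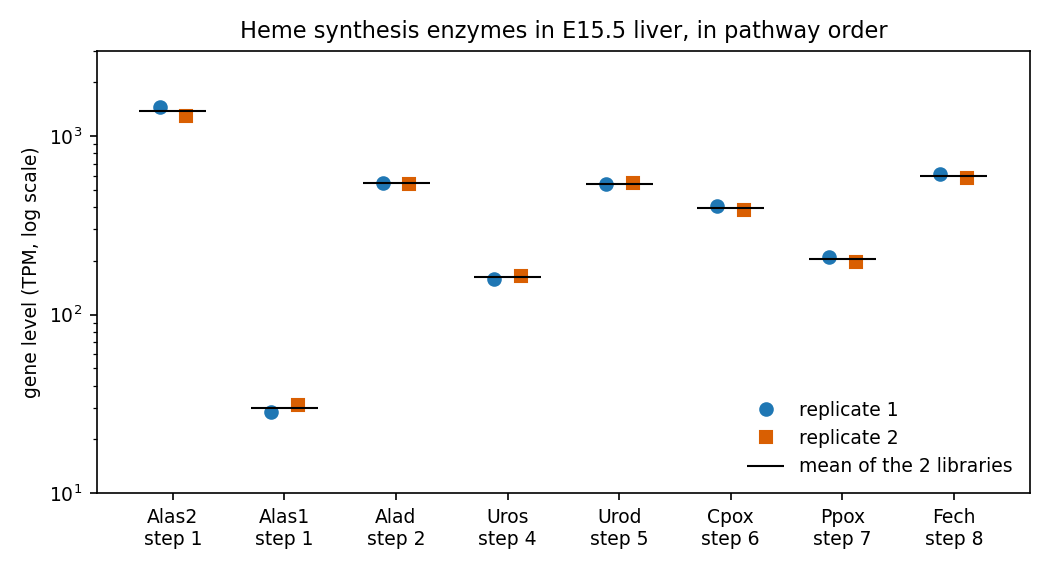
Gene level of each enzyme in TPM (log scale) in pathway order, with circles for replicate 1, squares for replicate 2 and a bar for their mean. Alas2 lies at 1454 and 1294 TPM, Alas1 at 28.5 and 31.2 TPM, and the other 6 enzymes between 159 and 614 TPM.

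At the first step, Alas2 (ENSMUSG00000025270, chrX:150547375-150570638 on the plus strand of GRCm38) had 1454 TPM in replicate 1 and 1294 TPM in replicate 2. It ranked 34 and 37 among protein-coding genes in the 2 libraries. Alas1 (ENSMUSG00000032786, chr9:106233455-106248654, minus strand) had 28.5 and 31.2 TPM and ranked 3108 and 2828. The Alas2 level lay far above the Alas1 level in each pool, at 51.1 times the Alas1 level in replicate 1 and 41.4 times in replicate 2, a mean ratio of 46.3 ± 6.82 (SD, n = 2). On the log2(TPM + 1) scale the difference was 5.63 and 5.33, a mean of 5.48 ± 0.21. The direction was the same in 2 of 2 libraries, and with 2 libraries the smallest p of an exact sign test (two-sided) is 0.5. Alas1 made up 1.92% and 2.36% of the TPM of the pair. Alas2 lies within the annotated span of Apex2, a DNA repair gene on the opposite strand with 11.4 and 10.2 TPM, and the sources used here do not say whether the counting used strand.

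Stretches of Alas2 are shown here because its iron control and the forms described further on turn on them. The first stretch is the loop region of the iron responsive element in the 5′ untranslated region, read from the GENCODE transcript Alas2-201 at transcript positions 85 to 114, with the loop letters CAGTGC in capitals (chrX:150547470-150547475). The second is the start of exon 3 in Alas2-201, where the capitals mark 45 coding bases (chrX:150552959-150553003) that Alas2-202 lacks. The third is the matching junction in Alas2-202, where the capitals mark the end of exon 2.
Alas2-201 iron responsive element: tggttcgtcctCAGTGCagggcaacaggac
Alas2-201 exon 2 to exon 3: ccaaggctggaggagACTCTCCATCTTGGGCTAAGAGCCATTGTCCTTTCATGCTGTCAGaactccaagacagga
Alas2-202 exon 2 to exon 3: CCAAGGCTGGAGGAGaactccaagacagga
The 45 bases are 15 whole codons, so the reading frame is the same on both sides. The 30 bases of the first stretch are also the start of Alas2-202, whose annotated 5′ end lies 84 nt downstream of that of Alas2-201. The 5 letters CAGTG occur in the first 150 nt of 20.3% of 58695 protein-coding transcripts of GENCODE M21, and of 8 of the 20 measured protein-coding transcripts of the enzymes, many of which share their first exon.

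In the cytosolic steps, Alad and Urod stood at nearly the same level over all forms, and Uros well below them. Alad (ENSMUSG00000028393, chr4:62509169-62519918, minus strand), the porphobilinogen synthase of the second step, had 545 and 539 TPM in replicates 1 and 2. Uros (ENSMUSG00000030979, chr7:133686243-133710072, minus strand), the uroporphyrinogen III synthase of the fourth step, had 159 and 164 TPM. Urod (ENSMUSG00000028684, chr4:116989965-116994413, minus strand), the decarboxylase of the fifth step, had 540.04 and 543 TPM. The pools overlapped for the pair of Alad and Urod, whose log2 difference was 0.0013 ± 0.018 (SD, n = 2), and Uros lay below both in each pool. Uros overlaps the oppositely transcribed Bccip, a BRCA2-interacting gene at 66.6 and 69.7 TPM, by 740 nt.

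Back in the mitochondrion, levels ran higher at the last step than at the 2 steps before it. Cpox (ENSMUSG00000022742, chr16:58670292-58717636, plus strand), the coproporphyrinogen oxidase of the sixth step, had 403 and 386 TPM in replicates 1 and 2. Ppox (ENSMUSG00000062729, chr1:171275990-171281186, minus strand), the protoporphyrinogen oxidase of the seventh step, had 209 and 197 TPM. It overlaps B4galt3, a galactosyltransferase gene on the opposite strand at 21.5 and 19.9 TPM, by 907 nt. Fech (ENSMUSG00000024588, chr18:64452914-64490251, minus strand), the ferrochelatase that inserts iron in the eighth step, had 614 and 584 TPM. Within each pool Fech was above Cpox and Cpox above Ppox, and no value of one of these genes reached into the range of another.

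Put in order by mean level, the enzymes ran Alas2, Fech, Alad, Urod, Cpox, Ppox, Uros and Alas1. By TPM over all forms, Alad and Urod were the only neighbours whose values overlapped. The step between neighbours was largest from Uros to Alas1, at 2.40 ± 0.058 on the log2 scale (SD, n = 2, here and in the next sentences). It was 1.19 ± 0.067 between Alas2 and Fech and 0.95 ± 0.017 between Cpox and Ppox. Urod exceeded Cpox by 0.46 ± 0.049 and Ppox exceeded Uros by 0.33 ± 0.093. Fech and Alad lay closest among the separated pairs, at 0.14 ± 0.040. By protein-coding forms alone, an alternative chosen after seeing the data, the order changed in part. Fech and Cpox were measured as 1 protein-coding form each, so this reading could lower their neighbours but not them. The direction in which steps to Fech and Cpox shifted was therefore fixed. Urod exceeded Cpox by 0.11 ± 0.024 and Alas2 exceeded Fech by 0.87 ± 0.041. Alad, at 541 and 535 TPM, then lay above Urod, at 431 and 423 TPM, in both pools. Ppox, at 149 and 135 TPM, then overlapped Uros, at 139 and 148 TPM, and its mean was the lower one. These Uros values include Uros-209, a form of 2 exons and 371 nt annotated as protein-coding, at 28.7 and 33.4 TPM. The overlap of Ppox and Uros depends on counting that form. The shares of the members' sum held by each enzyme varied little between pools, with 15.5% and 15.6% for Fech, 13.8% and 14.4% for Alad, and 13.7% and 14.5% for Urod. Cpox held 10.2% and 10.3%, Ppox 5.30% and 5.28%, Uros 4.02% and 4.39%, and Alas1 0.720% and 0.835%.

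The genes that feed, carry and control the pathway were read from 4 lists, which cover substrate supply, transport of intermediates and heme, iron and iron-sulfur assembly, and regulators. All listed genes reached 1 TPM in both libraries. The median level was 53.9 TPM for the 7 supply genes, 128 TPM for the 12 transport genes, 49.9 TPM for the 14 iron genes and 36.3 TPM for the 15 regulators, against a median of 10.7 TPM over the 12331 detected genes. A level of 10 TPM in each library was reached by 7 of 7 supply, 9 of 12 transport, 13 of 14 iron and 11 of 15 regulator genes, against 50.3% of those 12331 genes. A level of 100 TPM was reached by 3 of 7, 7 of 12, 4 of 14 and 4 of 15, against 8.06%. In each list 0 genes differed by more than 2-fold between replicate 1 and replicate 2.

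Substrate supply was led by Shmt2, the mitochondrial enzyme that makes glycine from serine, at 123 ± 12.8 TPM and by the mitochondrial glycine carrier Slc25a38 at 123 ± 4.76 TPM (SD, n = 2). Suclg1, the shared subunit of the succinyl-CoA synthetases, had 107 ± 0.350 TPM, and Sucla2, the subunit of the ADP-forming enzyme, was lowest at 43.0 ± 1.77 TPM. These were below the level of every heme enzyme but Alas1. Transport was led by Tmem14c, which is needed for porphyrin to cross the inner mitochondrial membrane, at 604 ± 9.17 TPM, a level within the range of Fech. The translocator protein Tspo had 190 TPM (189.9 ± 9.91) and its erythroid relative Tspo2 had 174 ± 6.45 TPM. The heme exporter Flvcr1 was lowest in that list, at 3.19 TPM in replicate 1 and 2.36 TPM in replicate 2.

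Iron genes were led by Glrx5, a glutaredoxin of iron-sulfur assembly, at 576 ± 0.0958 TPM and by Slc25a37 (mitoferrin 1), the erythroid iron carrier of mitochondria, at 442 ± 27.1 TPM (SD, n = 2). The transferrin receptor Tfrc had 273 ± 8.83 TPM, and Slc25a28 (mitoferrin 2), the widely expressed relative of Slc25a37, was lowest at 3.77 ± 0.346 TPM. The pair of mitoferrins was thus split in the same direction as the pair of synthases, the erythroid gene above the general one in both pools. Among regulators the erythroid transcription factors Klf1, at 451 ± 59.5 TPM, Nfe2, at 196 ± 7.14 TPM, and Gata1, at 112 ± 5.82 TPM, were highest. Foxo1, a transcription factor of hepatic metabolism, was lowest at 1.83 ± 0.407 TPM.

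**Figure D2:**
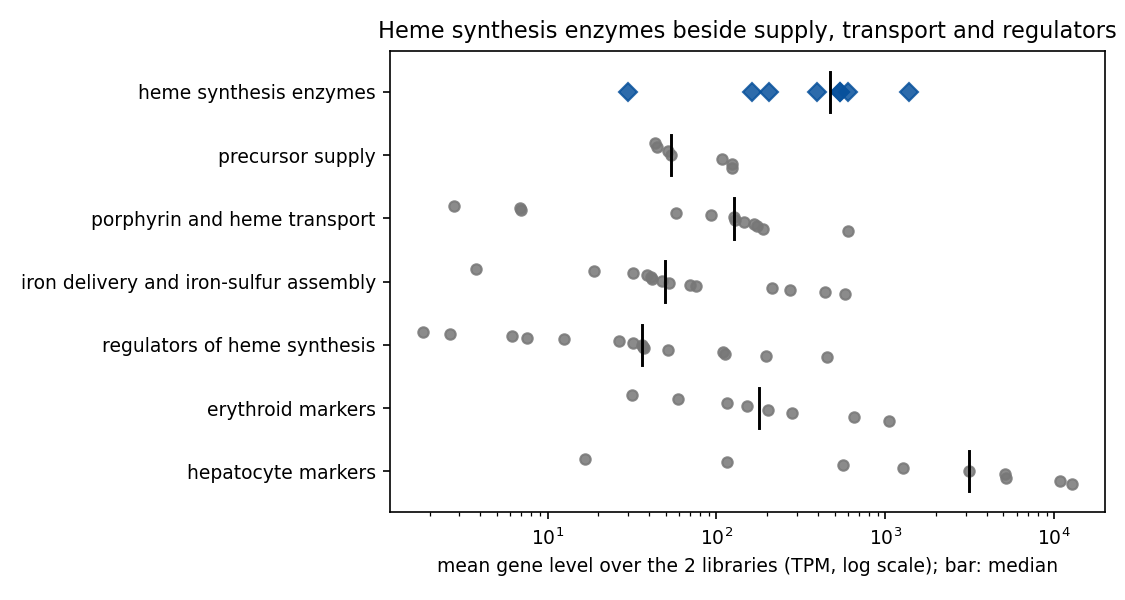
Mean level over the 2 libraries of each heme synthesis enzyme (diamonds) and of each gene in 4 pathway lists and 2 marker lists (circles), in TPM on a log scale, with a bar at each list's median. The transport list has the highest median of the 4 pathway lists, 128 TPM, with Tmem14c at 604 TPM level with the upper enzymes.

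The levels of the enzymes differed little between the 2 pools. On the log2 scale of TPM + 1, replicate 1 over replicate 2, Alas2 was at 0.17, Ppox at 0.08, Fech at 0.07, Cpox at 0.06, Alad at 0.02, Urod at -0.01, Uros at -0.05 and Alas1 at -0.13. Of the 8 members 0 differed by more than 2-fold, against 0.672% of the 8781 genes at 5 TPM or more in either library. The members' median was 0.04, and the median over all those genes was also 0.04, with the 5th and 95th percentiles at -0.28 and 0.33. Alas2 was the highest of the members and Alas1 the lowest on this scale, and both lay inside that range.

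Ratios of expected counts, which are not the TPM ratios above, were set against counting error, with each read taken as independent. The exact 95% interval of the expected-count ratio, which covers counting error alone, lay away from 1 for 7 of 8 members, against 49.5% of the 8781 genes. This interval narrows as counts rise, and those genes were not matched to the members in counts. The members held from 1776 (Alas1, replicate 1) to 88632 (Alas2, replicate 2) expected counts, so the 2 shares are not directly comparable. Cpox was the exception, with a log2 interval of -0.012 to 0.027. The interval lay above 0 for Alas2, at 0.068 to 0.096, for Ppox, at 0.050 to 0.115, and for Fech, at 0.0033 to 0.036. It lay below 0 for Alad, Uros, Urod and Alas1, and for Alas1 it ran from -0.27 to -0.098. The direction of such small differences depended on the scaling. By TPM 5 of 8 members were higher in replicate 1, by TMM or median-of-ratios scaling of expected counts 2 of 8, and by spike-in scaling 0 of 8, with all-gene medians of 0.04, -0.02, -0.02 and -0.14. Hepatocyte markers summed to a log2 ratio of 0.36 and erythroid markers to 0.05 between the same pools, and their part in the differences of the enzymes was not tested.

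**Figure D3:**
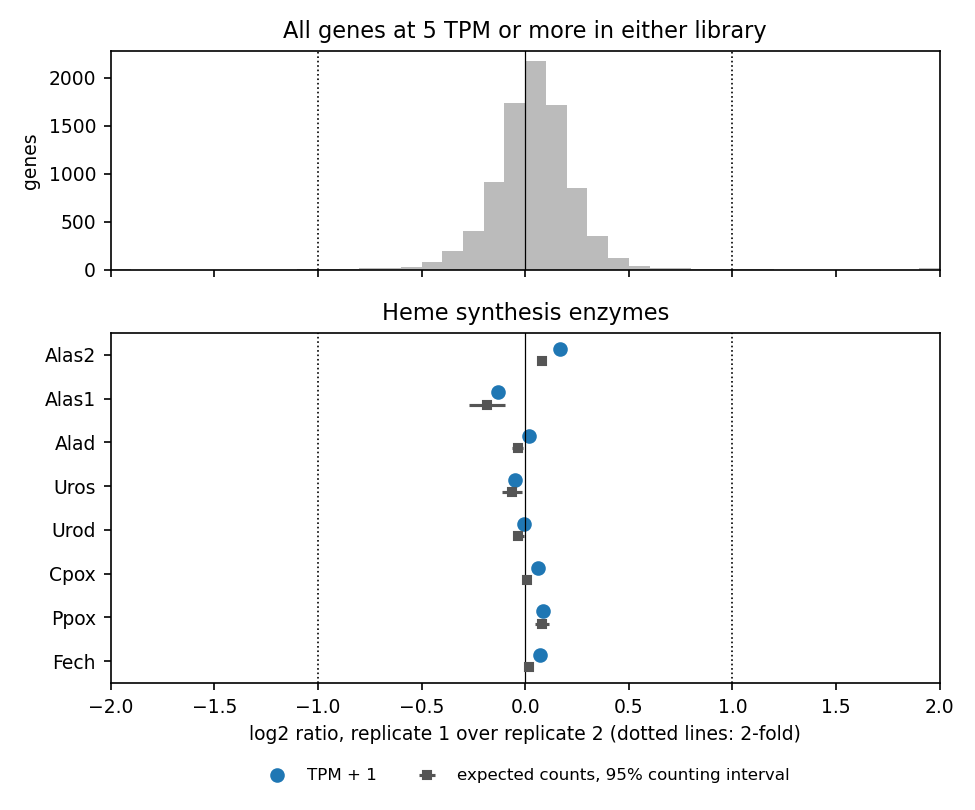
Log2 ratio of replicate 1 over replicate 2 for all genes at 5 TPM or more in either library (upper panel, number of genes per bin, with genes further out added to the end bins) and for each enzyme (lower panel). Circles are TPM + 1 and squares are expected counts scaled by library totals with their exact 95% counting interval. All 8 enzymes lie between -0.13 and 0.17 by TPM, well inside the dotted 2-fold lines.

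The pathway neighbours that differed most between pools did so on the same small scale. Shmt1, the cytosolic serine hydroxymethyltransferase, had 59.1 TPM in replicate 1 and 48.7 TPM in replicate 2, a log2 ratio of 0.27. Flvcr1, with the levels given above, had a ratio of 0.32. Hscb, a cochaperone of iron-sulfur assembly, had 48.2 and 55.9 TPM and a ratio of -0.21. Aco1, the cytosolic aconitase that serves as iron regulatory protein 1 when it has lost its iron-sulfur cluster, had 40.7 and 31.8 TPM and a ratio of 0.35. None of them reached 2-fold.

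The forms of each gene were read as shares of the gene's TPM. Of 69 transcripts that GENCODE M21 lists for the 8 genes, 44 were measured with the older annotation of the tables. Fech and Cpox were measured as 1 transcript each, Fech-201 and Cpox-201, so their usage of forms cannot be described. Alad was nearly a single form, since Alad-201 held 98.5% and 98.6% of its TPM in replicates 1 and 2. Of the other members, each had at least 3 measured forms. The leading form was the same in both libraries for all but Alas1, so it differed in 1 of the 6 members with several forms, against 6.85% of the 6121 genes that reached 5 TPM in each library and had several transcripts. The split among overlapping forms is the quantifier's estimate, and the number of reads that tell the forms apart is not known.

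**Figure D4:**
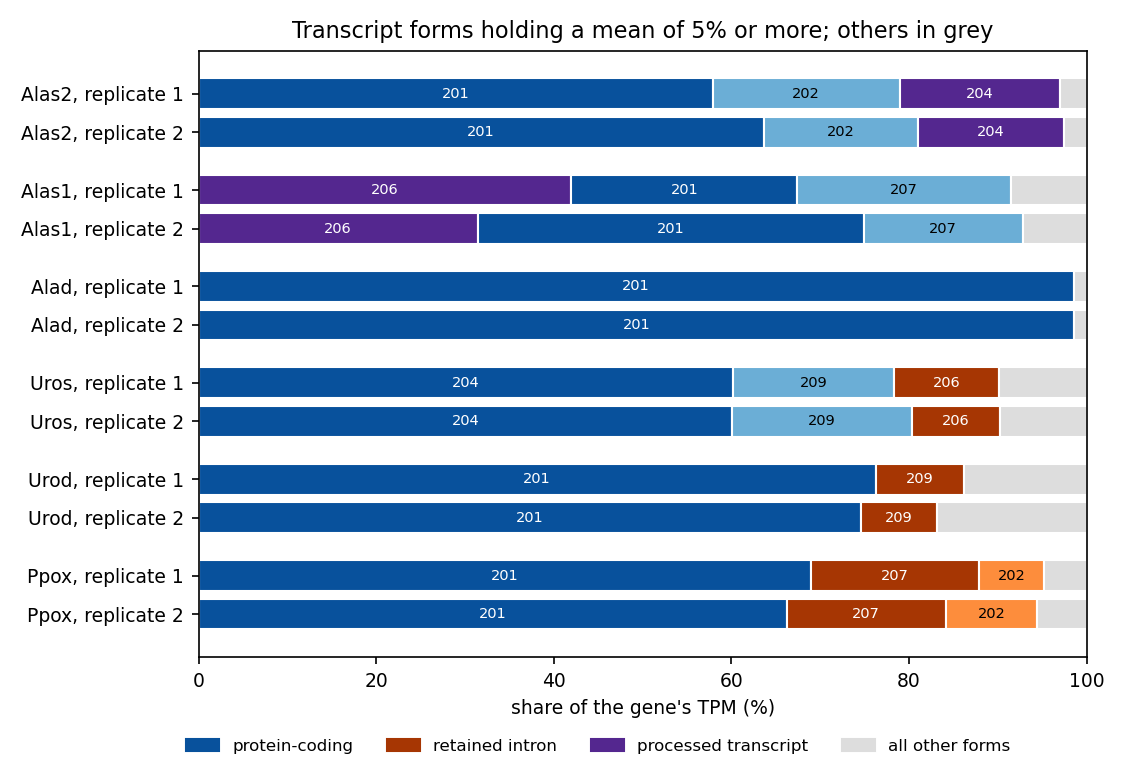
Share of each gene's TPM held by its transcript forms in replicates 1 and 2, for the 6 enzymes measured with several forms. Numbers are transcript suffixes, colours give the annotated class with lighter shades for further forms of that class, and grey is the sum of forms below a mean of 5%. Alas1 is the one gene whose largest segment changes between the libraries, and Alad is almost wholly 1 form.

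For Alas2, the leading form Alas2-201, which holds the 45 coding bases in exon 3 shown above, had 57.9% and 63.6% of the gene's TPM in replicates 1 and 2, a mean of 60.8% ± 4.07 (SD, n = 2). Alas2-202, which lacks them, had 21.1% and 17.4%, a mean of 19.2% ± 2.62. Within the pair, Alas2-201 held 73.3% and 78.6%, so the form with the longer exon 3 was the larger in both pools. A further 18.0% and 16.5% was given to Alas2-204, a 2-exon processed transcript that begins 19015 nt downstream of the first start and covers only the 3′ end. Counted as reads without length correction, that form held 5.30% and 4.75%. Protein-coding forms together held 78.9% and 81.0% of Alas2 TPM, which is 1148 and 1048 TPM.

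For Alas1, the leading form was Alas1-206 in replicate 1 and Alas1-201 in replicate 2. Alas1-206, a processed transcript with no annotated coding sequence that starts 5020 nt downstream of the first start, had 42.0% and 31.5% of the gene's TPM in replicates 1 and 2. Alas1-201, a protein-coding form of 11 exons, had 25.4% and 43.4%, a mean of 34.4% ± 12.7 (SD, n = 2), the widest spread of any named form. Alas1-207, a protein-coding form from the most upstream start, had 24.0% and 17.9%. These shares rest on far fewer counts than those of the other enzymes, with 1776 and 2623 expected counts for the whole gene against 72258 and 88632 for Alas2. Protein-coding forms held 49.5% and 61.5% of Alas1, or 14.1 and 19.2 TPM. By these forms alone Alas2 exceeded Alas1 by 5.98 on the log2(TPM + 1) scale, against 5.48 by all forms.

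For Urod and Ppox, a protein-coding form led and retained-intron forms made up most of the rest. Urod-201 held 76.2% and 74.6% of Urod TPM in replicates 1 and 2, and the retained-intron form Urod-209 held 9.95% and 8.61%. Ppox-201 held 69.0% and 66.2% of Ppox TPM. The retained-intron forms Ppox-207 and Ppox-202 held 18.9% and 17.9%, and 7.35% and 10.2%. Without length correction these shares moved by over 1.5 times, to means of 38.9% of expected counts for Ppox-207, 2.38% for Ppox-202 and 3.93% for Urod-209. All retained-intron forms together came to 28.1% and 30.1% of Ppox, 19.4% and 20.5% of Urod, 11.9% and 9.88% of Uros, 3.06% and 2.52% of Alas2, and 3.68% and 3.08% of Alas1. Ppox had the highest such share in both pools among the genes with a measured retained-intron form, which Alad, Cpox and Fech lack. The last exon of Ppox-207 runs past that of Ppox-201. B4galt3 overlaps Ppox by 907 nt on the opposite strand, and whether the counting used strand is not known. As shares of expected counts the sums were 41.7% and 41.9% for Ppox, 9.67% and 9.94% for Urod, 20.0% and 17.1% for Uros, 0.740% and 0.596% for Alas2, and 1.31% and 1.09% for Alas1, so Ppox was highest by both measures, while Uros then exceeded Urod. Protein-coding forms were under 75% of the TPM in both libraries for 2 of 6 members, Alas1 and Ppox, against 22.0% of the 6024 protein-coding genes that reached 5 TPM in each library and had several transcripts. For Ppox that share was 71.1% and 68.2%, for Urod 79.9% and 78.0%, for Uros 87.7% and 90.02%, and for Alad 99.3% and 99.4%. The class is the annotation's label and includes short forms. For Uros it includes Uros-209, of 2 exons and 371 nt, with 18.0% and 20.3% of its TPM in replicates 1 and 2. Uros stayed above 75% only with that form counted.

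The start sites bear on the described erythroid and housekeeping promoters, and forms were grouped where each annotated start lay within 100 nt of the next. A group could thus span more than 100 nt, as the main one of Uros does at 136 nt. For Alad the 3 measured forms start within 37 nt and fall into 1 group, so use of its described promoters could not be separated. For Uros the measured forms fell into 5 groups. The group of 5 transcripts with starts at chr7:133708958-133709094, the main upstream one, held 79.8% and 77.7% of Uros TPM in replicates 1 and 2, a mean of 78.7% ± 1.53 (SD, n = 2). It contains the leading form Uros-204, with 60.2% and 60.1%, and the retained-intron form Uros-206, with 11.9% and 9.88% of TPM but 18.6% of expected counts on average. The next group downstream, called the downstream one here, is the single form Uros-209, which starts 7456 nt after the first measured start. It held 18.0% and 20.3%, a mean of 19.2% ± 1.61, or 28.7 and 33.4 TPM. Uros-207 starts further on, at 11992 nt, and held 0.397% and 0.0942%.

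Stretches that separate Uros forms are printed because they show what the downstream share rests on. Those of Uros-204 and Uros-203 are exon junctions, while that of Uros-209 is continuous in the genome. Capitals mark the first 15 bases, which are the end of exon 1 in Uros-204 and Uros-203 and the bases just before the shared exon 2 sequence in Uros-209.
Uros-204: CTCTTAGCCCGCGAGcgtcttttagaagga
Uros-203: CTCTTAGCCCGCGAGgaacagtctgagatc
Uros-209: TCCAACATCACCTAGgaacagtctgagatc
Uros-203 and Uros-209 run on with the same bases after the capitals, and Uros-204 enters exon 2 further along. Uros-209 is annotated with 2 exons and 371 nt in all, of which the 147 nt at chr7:133702470-133702616 lie before exon 2 of Uros-203. In Uros-203 and Uros-204 these 147 nt belong to the intron between exons 1 and 2. Unspliced RNA from the upstream start would hold the same bases and cannot be told apart here, which was not tested. Reads from later exons of an RNA that began at the Uros-209 start would be counted under other forms. The estimate rests on 243 and 381 expected counts in replicates 1 and 2. As a share of expected counts, without length correction, the downstream form held 4.26% on average. Uros-205, from the upstream group, contains most of the same 147 nt and was listed at 0 in both libraries. Uros-210, which GENCODE M21 starts at chr7:133702538, was not analysed here.

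**Figure D5:**
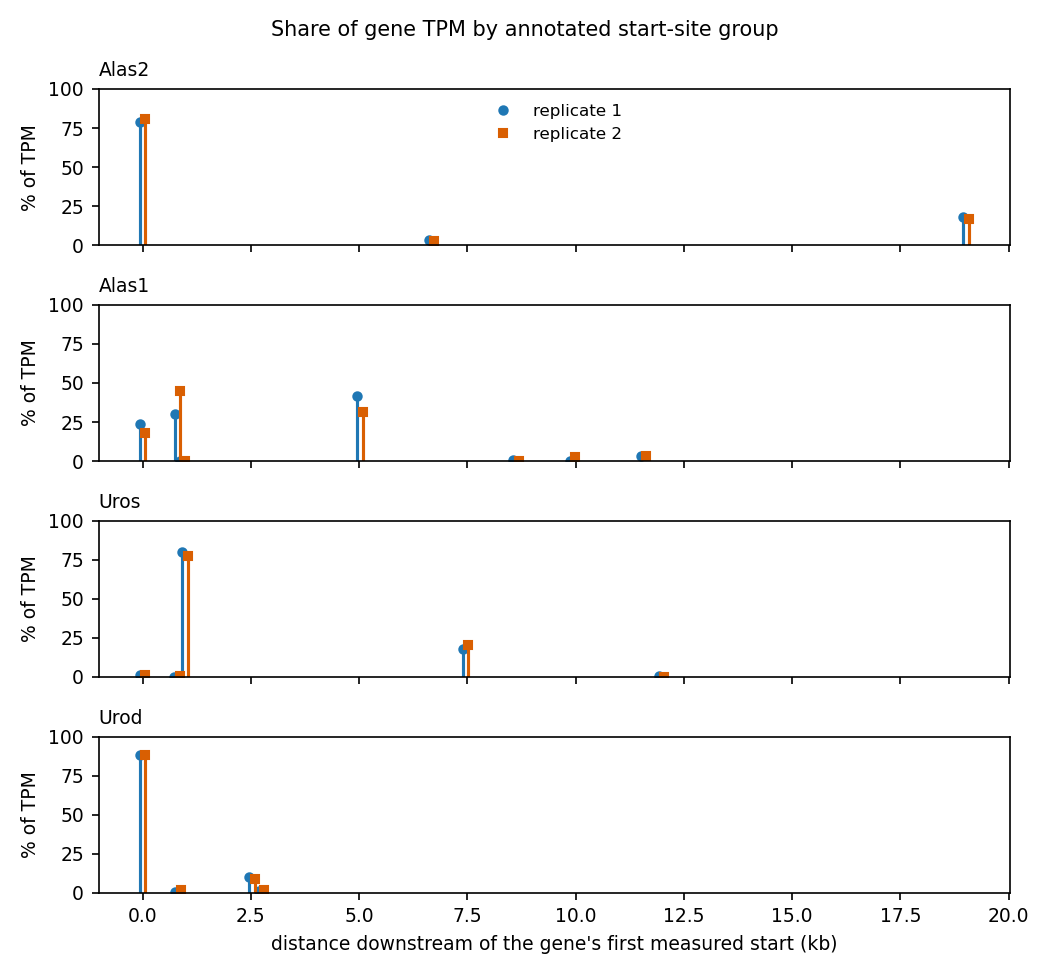
Share of gene TPM by annotated start group, plotted against the distance of the group downstream of the gene's first measured start in kb, for Alas2, Alas1, Uros and Urod. Circles are replicate 1 and squares replicate 2, set slightly apart. Most Uros TPM sits in the upstream group, with a second group at 7456 nt holding 18.0% and 20.3%, and Alas1 is divided over 3 main groups.

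For the other genes with several starts, the first group held most of the TPM, with the exception of Alas1. It held 78.9% and 81.0% for Alas2 in replicates 1 and 2, 88.2% and 88.3% for Urod, and 89.7% and 86.1% for Ppox. For Alas1 the first group held 24.0% and 17.9%, the group of Alas1-201 and Alas1-205, which lies 798 nt downstream, held 30.3% and 45.1%, and Alas1-206 held the 42.0% and 31.5% given above. Alas1-207, the form of the first group, also differs from Alas1-201 at the 3′ end, with a last exon of 740 nt against 271 nt. Its share thus does not rest on the start alone. Alas1-205, a form annotated for nonsense-mediated decay, had 4.88% and 1.69%.

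The DNA before the starts was searched for letters that GATA1 is known to bind, in the 250 bases upstream of RefSeq starts (build GRCm38.p6). RefSeq gave 10 such promoters for 7 of the 8 genes. The 6-letter forms, which are GATA with A or T before it and A or G after it, occurred on either strand in 3 of the 10, against 26.5% of 32851 promoters. They were the Alas2 promoter with 1 place, 86 bases before the RefSeq start, the downstream Uros promoter with 2 places, 205 and 68 bases before it, and the Cpox promoter with 2 places, 91 and 86 bases before it, which share 1 base. At least 2 places were present in 6.40% of all promoters. None of these letters occurred in the windows of the upstream Uros promoter or of Alad, Alas1, Urod and Ppox. The upstream Uros window, chr7:133709296-133709545 on the minus strand, does not reach the main upstream start group at chr7:133708958-133709094. The bases between that window and that group were not searched. The shorter GATA occurred in 4 of 10, against 53.6% of all promoters, and every 6-letter form contains it. The letters CACCC, bound by Klf1 within a longer motif, occurred in 5 of 10, against 52.0%. A match is a description of letters and not of binding, which was not measured.

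The windows that hold the 6-letter forms are printed with those letters in capitals, cut where an annotated exon begins. For Alas2 the window is chrX:150547167-150547374 on the plus strand. For Uros it is chr7:133702617-133702750 on the minus strand, and the place 68 bases before the RefSeq start lies inside the first exon of Uros-209 and is printed with its surroundings alone (chr7:133702551-133702580). For Cpox it is chr16:58669958-58670207 on the plus strand.
Alas2: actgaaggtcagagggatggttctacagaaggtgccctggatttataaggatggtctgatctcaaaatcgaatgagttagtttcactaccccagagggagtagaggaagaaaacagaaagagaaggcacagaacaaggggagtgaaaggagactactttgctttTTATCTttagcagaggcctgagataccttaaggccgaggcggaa
Uros, before Uros-209: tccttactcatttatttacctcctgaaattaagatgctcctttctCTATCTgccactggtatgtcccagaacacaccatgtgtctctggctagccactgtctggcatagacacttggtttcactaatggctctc
Uros, within Uros-209: tctccctcagccTTATCAgtgacagagggc
Cpox: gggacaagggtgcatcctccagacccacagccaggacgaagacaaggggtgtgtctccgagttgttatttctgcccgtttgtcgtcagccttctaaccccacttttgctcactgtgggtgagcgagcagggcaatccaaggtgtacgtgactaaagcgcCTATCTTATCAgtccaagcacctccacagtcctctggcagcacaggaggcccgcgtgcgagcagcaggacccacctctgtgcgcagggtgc
The downstream RefSeq start of Uros lies 116 nt inside Uros-209, so its window is not that form's own promoter, and 1 of its 2 places lies before the form's start. The promoters belong to genes at very different levels, with Alas2 at 1374 ± 113 TPM, Cpox at 395 ± 11.9 TPM and Uros at 162 ± 3.76 TPM (SD, n = 2). The Uros value is that of the whole gene, of which Uros-209 had 28.7 and 33.4 TPM in replicates 1 and 2.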

How the data were processed

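Each library came with a gene table and a transcript table, made on mm10 with annotation M4 per the companion descriptions; column names are RSEM's, and the aligner (not given in the sources used here) was not inferred. Per feature, the authors deposited expected counts, which are estimated counts without scaling. They also deposited length-normalised abundances, spike-ins included, as TPM and as posterior mean TPM. The deposited isoform percent is the authors' share of a transcript in its gene; lengths and effective lengths are the authors' values in nt. Here TPM was rescaled without the 97 spike-ins and the 26248 entries with numeric identifiers, and those numeric entries held 15.0 and 24.9 expected counts in replicates 1 and 2. GENCODE M21 named 42462 of 43346 genes.

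The members and lists were chosen with earlier results of these data known. Named were all members, forms with a mean share of 5% or more, and in each pathway list the 3 highest genes, the lowest and the one differing most between libraries; of marker lists the 2 highest, of which 1 is not reported here. Further forms were named, after values were seen, where a start group turned on them. Ratios are replicate 1 over replicate 2 of TPM + 1. Count intervals are Clopper-Pearson and cover counting error only, since PCR reads are not independent molecules. Interval and fold rules were tested on simulated counts with sampling noise alone, so that test does not cover the larger spread between these libraries. Alternatives used edgeR 4.0.16 and DESeq2 1.42.0 for scaling factors alone, in R 4.3.3. The rest ran in Python 3.11.15 with SciPy 1.17.1 and pandas 2.3.3.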

Additional observations from a re-analysis of the deposited data

How the results depend on the processing

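No paired analysis was possible because the 2 libraries form 1 group, so no groups share replicate numbers. Ratios between the libraries, with 1 library a side, carry no p. Alas2 over Alas1, 5.48 on the log2(TPM + 1) scale, ranged from 5.33 to 5.63 with either library left out. It was 5.19 by expected counts scaled to the library total and 5.98 by protein-coding transcripts alone, an alternative chosen after seeing the data. The members' sum, 3846 TPM, ranged from 3738 to 3953 with either library left out. It was 6547 by expected counts scaled to the total that TPM has, with no length correction, and 3359 TPM by protein-coding transcripts alone. The downstream Uros share, 19.2%, ranged from 18.0% to 20.3% with either library left out. It was 4.26% by expected counts, with no length correction, and 21.5% among protein-coding forms, a reading that could only raise it. The number of members with another leading form in each library was 1, and 0 among genes at 50 TPM or more, a limit that removes Alas1. The counts of members at 100 TPM or more (7) and past 2-fold (0), and the single start group of Alad, were the same under every alternative run. For Alad this was fixed in advance, since its starts span 37 nt and the other joining limits tried were 50 and 300 nt. Alternatives were also tried on single members, leaving out a library aside. Of these, 6 of 12 protein-coding shares and 23 of 39 transcript shares moved beyond the spread between the pools. Among those 23 were all 9 shares read among protein-coding forms alone, a reading that could only raise them. Log2 ratios between libraries have no spread between pools, and 22 of 56 moved by more than their counting interval reaches to either side of its centre. By protein-coding forms alone, with Uros-209 counted among them, the log2 step of Ppox over Uros was -0.020, against 0.33 by all forms. Of the other 6 steps between neighbours, 5 moved beyond the spread. Steps that involve Fech or Cpox could shift only through the other gene, since each was measured as 1 protein-coding form. Depth limits the forms with few expected counts, such as Uros-209 with 243 and 381 in replicates 1 and 2.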
